A study of Mus musculus with 7 samples.

Results

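The genes described are 10 genes of purinergic signalling, the communication between cells through extracellular ATP, ADP, UDP and adenosine. They were chosen by name: the nucleotide receptors P2rx4, P2rx7, P2ry1 and P2ry6, the adenosine receptors Adora1, Adora2a, Adora2b and Adora3, and the surface enzymes Entpd1 and Nt5e. Of the 10 genes, 7 matched a probe to which the platform annotation gives a single gene symbol, out of 18193 genes matched in this way. Adora1, Adora2a and Adora2b were not analysed here. For each gene the brightest probe, by its average across the 7 arrays, was used, and all 7 genes passed the filter on dim probes.

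The RNA came from glioma cells of C57/Bl6 background that overexpress the growth factor PDGF-B and EGFP. The cells were carried in the brains of NOD/SCID hosts, a strain without working B and T cells that still has myeloid cells. The 4 secondary gliomas arose from grafted cells of early-onset primary tumours, and the 3 tertiary gliomas from secondary glioma cells grafted once more. All 7 tumours were digested with trypsin and sorted for EGFP by flow cytometry, so both groups share the transgene, the host strain and the sort. The labels call the samples biological replicates without naming the donor tumour or host of each, so p-values measure the spread between these samples.

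ATP leaves stressed and dying cells and opens the P2X receptors, which are ion channels, while the P2Y receptors are G protein-coupled and answer to ATP, ADP, UTP or UDP. Entpd1 encodes CD39, which cuts ATP and ADP down to AMP, and Nt5e encodes CD73, which turns AMP into adenosine, so the enzymes in sequence replace a nucleotide signal with an adenosine signal. Microglia, the macrophages of the brain, carry much of this machinery, and in tumours CD39 and CD73 are known as a source of immunosuppressive adenosine.

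Expression is given as log2 RMA values of single probes, and a difference is the tertiary minus the secondary mean on that scale. Since probes differ in binding, the level of one gene is not set against that of another. The median array value lay between 5.57 and 5.64, and precision is limited by how few arrays there are. Markers of oligodendrocyte precursors, the lineage that PDGF-driven gliomas resemble, averaged 10.39 ± 0.21 (SD) over the 4 secondary gliomas and 10.46 ± 0.19 (SD) over the 3 tertiary ones. Of the 9 tested, limma called 0, and 0 had an unadjusted p under 0.05, Sox10 differing by 0.30 (adjusted p = 0.338), or by 0.18 without secondary glioma 3. Markers of microglia and macrophages, cells that the EGFP label does not name, had a list mean of 10.29 ± 0.33 in secondary gliomas, ranging from 9.97 to 10.74, and of 6.38 ± 0.43 in tertiary gliomas, ranging from 5.93 to 6.78. All 19 tested were called lower by limma, beside 6.33% of all genes tested. The differences were -4.12 for Fcer1g, -5.37 for Ptprc and -4.00 for Trem2 (-2.01 with the mean of all its probes). Single markers in tertiary gliomas lay between 2.86 and 9.76. Itgam passed the filter on dim probes through its secondary values, with a tertiary mean of 3.03 below the filter. RMA values have no true zero, so no marker can be said to be absent.

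Of the 7 measured genes, 3 were lower in tertiary gliomas and 0 were higher in limma with Benjamini-Hochberg adjustment over 14453 genes, a threshold of 0.05 on the adjusted p. The 3 were P2ry6, P2rx4 and Entpd1, and no other of the 7 had an unadjusted p under 0.05, which 23.8% of all genes tested had. Over all genes tested 6.33% were lower and 1.04% higher, 7.38% in either direction. Secondary and tertiary values were fully apart in 4 of the 7, P2rx7 being the fourth, and in 21.9% of all genes tested. The median difference over the 7 was -0.33, beside 0.09 over all genes tested. In bulk RNA, fewer cells of a type and less RNA per cell cannot be told apart, which holds for each difference given here.

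**Figure D1:**
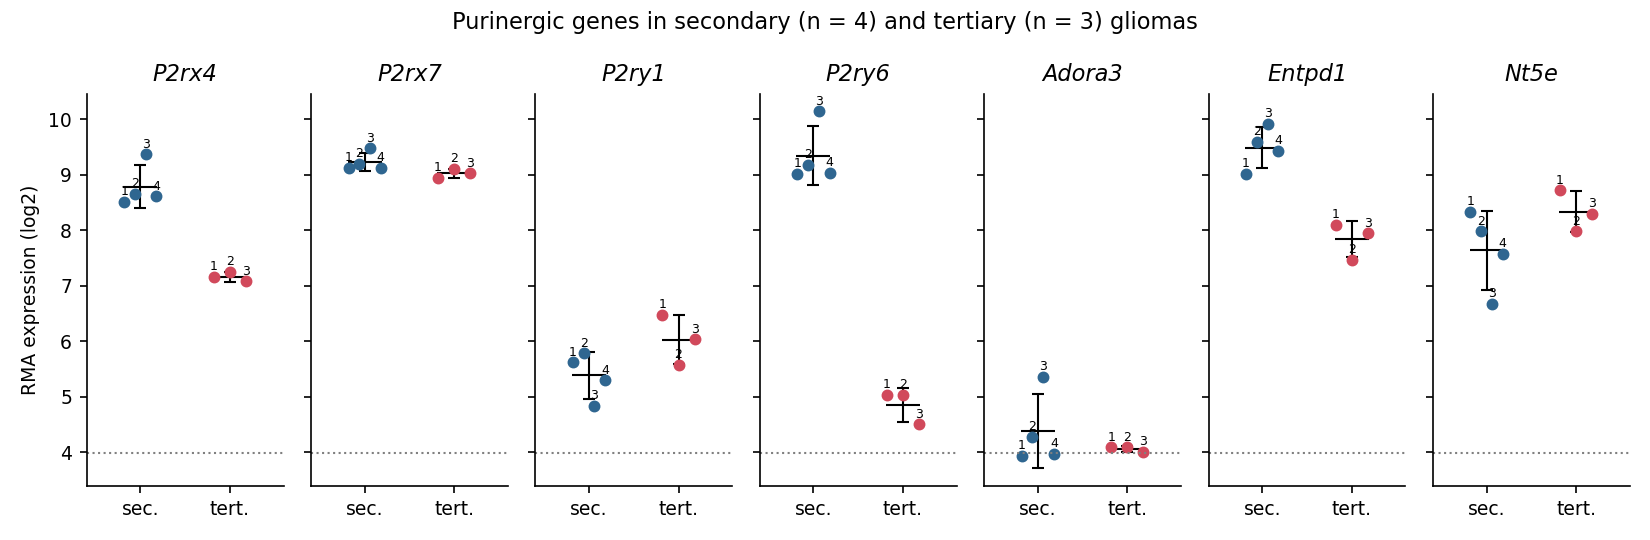
Log2 RMA expression (y axis) of the 7 measured genes in 4 secondary (blue) and 3 tertiary (red) gliomas, numbered by replicate; horizontal ticks and bars are the mean and SD, and the dotted line is the filter on dim probes at 3.99. P2ry6, P2rx4 and Entpd1 separate the groups widely, P2rx7 separates them narrowly, and P2ry1, Adora3 and Nt5e overlap.

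P2ry6, the UDP receptor that in microglia is tied to phagocytosis, showed the largest difference of the 7. Its values were 9.03, 9.19, 10.15 and 9.04 in secondary gliomas 1 to 4 and 5.03, 5.04 and 4.51 in tertiary gliomas 1 to 3. The groups were far apart, with secondary glioma 3 the highest of all and tertiary glioma 3 the lowest. The difference was -4.49 ± 0.30 (SE, n = 4 and 3, adjusted p = 0.000109 in limma), a level 22.4-fold lower with a 95% interval from 13.8 to 36.4. It lay at percentile 0.387 of the differences of all genes tested. P2ry6 had a single probe, so no second probe was at hand to set beside it. The microglia and macrophage list mean fell by 3.90 in the same samples, and the part of those cells in the P2ry6 difference was not tested.

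P2ry1, an ADP receptor known from astrocytes and platelets, had values of 5.63, 5.79, 4.84 and 5.30 in secondary and 6.48, 5.58 and 6.04 in tertiary gliomas. Secondary glioma 3 was the lowest and tertiary glioma 1 the highest, and the groups overlapped because tertiary glioma 2 lay below secondary gliomas 1 and 2. The difference of 0.64 ± 0.29 did not pass (adjusted p = 0.218), and its 95% interval ran from -0.02 to 1.31. Without tertiary glioma 1 the difference was 0.42, and without secondary glioma 3 it was 0.46.

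P2rx4, a P2X channel of microglia and other cells that sits in lysosomes and at the surface, was lower in tertiary gliomas. Its values were 8.51, 8.66, 9.37 and 8.62 in secondary gliomas 1 to 4 and 7.17, 7.26 and 7.08 in tertiary gliomas 1 to 3. The tertiary values lay close together, with an SD of 0.09 beside 0.39 in secondary gliomas, where glioma 3 stood above the other 3. The difference was -1.62 ± 0.22 (SE, adjusted p = 0.00314 in limma), or 3.08-fold lower with a 95% interval from 2.17 to 4.37.

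P2rx7, the channel that high ATP opens at sites of damage and that drives interleukin-1 release in macrophages, did not pass the test. Its values were 9.12, 9.21, 9.48 and 9.12 in secondary and 8.94, 9.11 and 9.03 in tertiary gliomas. Every tertiary value lay below every secondary value, but tertiary glioma 2 missed secondary gliomas 1 and 4 by a margin smaller than the spread within a group, and with each array centred on its median 3 rather than 4 of the 7 genes were without overlap. The difference of -0.20 ± 0.14 did not pass (adjusted p = 0.412), and its 95% interval of -0.53 to 0.12 does not reach the -1.12 at which that of P2rx4 ends. Without secondary glioma 3 the P2rx7 difference was -0.12.

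P2rx7 and P2rx4 are neighbours on chromosome 5, with 0 protein-coding genes between them in the RefSeq gene table. To put the neighbours side by side, the log2 ratio of P2rx4 to P2rx7 was taken within each array. It changed by -1.42 between the groups, from -0.44 ± 0.23 (SD) in secondary to -1.86 ± 0.09 in tertiary gliomas, without overlap. The exact two-sided permutation p, taken by doubling the smaller one-sided p, was 0.0571, the smallest this form allows with 4 against 3 samples. It was 0.0653 adjusted over 8 such ratios, which were chosen after the values were seen. The promoter windows of both genes are shown because one member of the pair was called and the other was not. They come from RefSeq (GRCm38.p6) and run from 250 bases before to 50 bases after an annotated start, which P2rx7 has at 2 places. Capitals mark GAGGAA, the core that the myeloid factor PU.1 binds, on either strand.
P2rx4, chr5:122707294-122707593, plus strand: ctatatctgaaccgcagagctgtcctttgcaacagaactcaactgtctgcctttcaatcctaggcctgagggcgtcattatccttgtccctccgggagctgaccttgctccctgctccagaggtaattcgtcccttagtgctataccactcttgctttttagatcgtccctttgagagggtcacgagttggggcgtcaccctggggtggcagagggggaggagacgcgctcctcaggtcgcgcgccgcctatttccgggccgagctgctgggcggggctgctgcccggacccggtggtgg
P2rx7 first start, chr5:122643677-122643976, plus strand: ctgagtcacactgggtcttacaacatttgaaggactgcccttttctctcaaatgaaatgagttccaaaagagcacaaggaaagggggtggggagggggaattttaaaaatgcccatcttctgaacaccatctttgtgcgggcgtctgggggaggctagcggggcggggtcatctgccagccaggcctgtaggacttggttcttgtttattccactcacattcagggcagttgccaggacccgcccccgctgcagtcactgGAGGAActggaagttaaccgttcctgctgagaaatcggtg
P2rx7 second start, chr5:122650133-122650432, plus strand: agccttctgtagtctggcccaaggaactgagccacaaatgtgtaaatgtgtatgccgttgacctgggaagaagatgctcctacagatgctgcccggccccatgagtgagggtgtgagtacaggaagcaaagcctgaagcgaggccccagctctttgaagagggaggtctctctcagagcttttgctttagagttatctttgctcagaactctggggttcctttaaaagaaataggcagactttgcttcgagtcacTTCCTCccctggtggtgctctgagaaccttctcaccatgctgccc
The P2rx4 window held no GAGGAA, and each P2rx7 window held 1, at 11 bases after the first start and at 6 bases after the second. GAGGAA was found in 28.3% of all 32851 windows. Of the other motifs searched on both strands, GGGCGG, the GC box, was found once in the P2rx4 window and at 2 places in the first P2rx7 window, and in 35.7% of all windows. TGANTCA, the AP-1 site, was found once in the first P2rx7 window and in 7.81% of all windows. TGACGTCA, ACGTG and CACGTG (which contains ACGTG) were found in none of the 3, and in 1.79%, 19.6% and 7.15% of all windows. A match or its lack describes these letters and not a bound site.

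**Figure D2:**
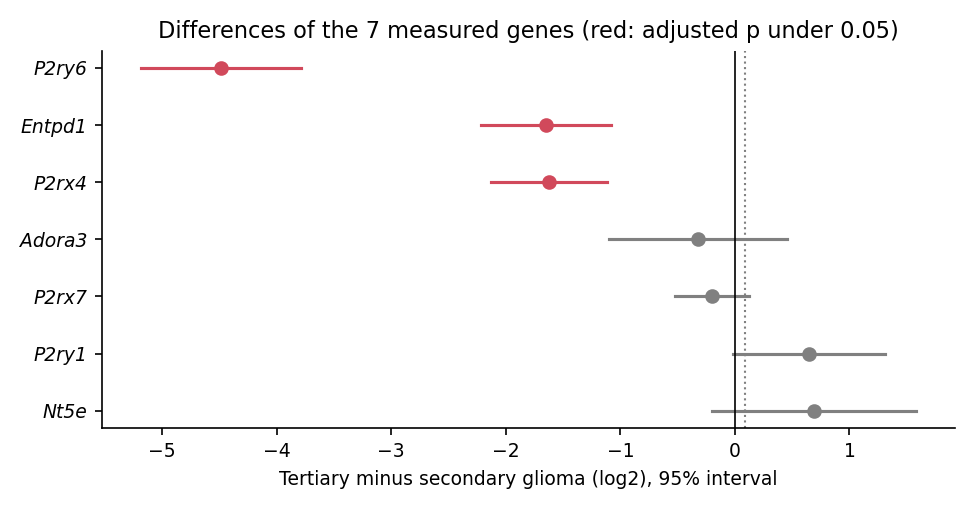
Tertiary minus secondary difference (log2, x axis) of the 7 measured genes with its 95% interval from limma; red marks an adjusted p under 0.05 and the dotted line the median of all genes tested, 0.09. The intervals of P2ry6, Entpd1 and P2rx4 lie below 0 and the other 4 include 0.

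Entpd1, which encodes the ATP- and ADP-cutting enzyme CD39 of microglia, endothelium and regulatory T cells, was lower in tertiary gliomas. Its values were 9.02, 9.60, 9.92 and 9.43 in secondary gliomas 1 to 4 and 8.10, 7.48 and 7.95 in tertiary gliomas 1 to 3. The groups did not overlap, secondary glioma 3 was again the highest and tertiary glioma 2 was the lowest. The difference was -1.65 ± 0.24 (SE, adjusted p = 0.00524 in limma), or 3.14-fold lower with a 95% interval from 2.12 to 4.64. Of 10 endothelial and pericyte markers tested 0 were called by limma and 3 had an unadjusted p under 0.05, and their mean was 5.57 ± 0.17 (SD) in the secondary against 5.28 ± 0.17 in the tertiary group. That list includes Cspg4, at 10.27 in secondary and 10.34 in tertiary gliomas, which is also on the oligodendrocyte precursor list. Of the 10, 2 were fully apart with tertiary below, beside 11.2% of all genes tested. The endothelial cadherin Cdh5, 1 of the 2, differed by -0.48 (adjusted p = 0.11), and its tertiary mean of 4.07 lay near the dim filter. The lymphocyte list mean was 5.51 ± 0.18 and 5.43 ± 0.05.

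The RefSeq promoter windows of the 2 Entpd1 starts are shown because their motif content differs, with GAGGAA in capitals as above.
Entpd1 first start, chr19:40612116-40612415, plus strand: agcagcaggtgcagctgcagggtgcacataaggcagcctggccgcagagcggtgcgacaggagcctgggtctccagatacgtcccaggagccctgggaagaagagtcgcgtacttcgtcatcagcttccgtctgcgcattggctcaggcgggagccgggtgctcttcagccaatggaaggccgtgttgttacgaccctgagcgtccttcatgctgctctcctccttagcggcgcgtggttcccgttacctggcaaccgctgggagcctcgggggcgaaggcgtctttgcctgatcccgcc
Entpd1 second start, chr19:40659520-40659819, plus strand: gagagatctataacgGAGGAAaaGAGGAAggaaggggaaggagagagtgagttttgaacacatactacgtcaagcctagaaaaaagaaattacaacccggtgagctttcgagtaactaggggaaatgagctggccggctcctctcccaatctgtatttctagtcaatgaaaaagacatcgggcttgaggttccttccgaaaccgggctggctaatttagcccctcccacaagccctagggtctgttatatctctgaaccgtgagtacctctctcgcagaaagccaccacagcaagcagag
The window of the first start held none of the 6 motifs. That of the second start held GAGGAA at 2 places, at positions -235 and -227 counted from the start, and none of the other 5. RefSeq windows were at hand for 8 of the 10 genes, P2ry6 and Adora2a not among them, and the arrays do not tell which start a transcript used.

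Nt5e, which encodes the AMP-cutting enzyme CD73, had values of 8.33, 7.98, 6.68 and 7.58 in secondary and 8.72, 7.98 and 8.30 in tertiary gliomas. The groups overlapped, and secondary glioma 3 lay far below the other 6. The difference of 0.69 ± 0.38 did not pass (adjusted p = 0.314), its 95% interval ran from -0.20 to 1.58, and it was 0.37 without secondary glioma 3. The log2 ratio of Entpd1 to Nt5e, the enzymes that act one after the other, was taken within each array. It changed by -2.34 and did not overlap between the groups, at an SD of 1.05 in secondary and 0.13 in tertiary gliomas. The exact two-sided permutation p was 0.0571, the smallest possible with the doubling given above, and 0.0653 adjusted over the 8 ratios.

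Adora3, the adenosine receptor that lowers cyclic AMP and is known from mast cells and microglia of rodents, was dim. Its values were 3.93, 4.28, 5.36 and 3.98 in secondary and 4.09, 4.09 and 4.01 in tertiary gliomas, with the filter on dim probes at 3.99. Only secondary glioma 3 stood out from the rest. The difference was -0.33 ± 0.34 (adjusted p = 0.593) with a 95% interval from -1.10 to 0.45, and it was -0.0015 without secondary glioma 3. A second probe, with a mean of 3.93 that fell below the filter, read 4.17, 4.99, 5.02 and 3.78 in secondary and 3.24, 3.07 and 3.21 in tertiary gliomas. That probe differed by -1.31 ± 0.32 without overlap (adjusted p = 0.0761 over all probes), so the 2 probes give different pictures of Adora3 near background.

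P2rx4, P2rx7, Adora3, Entpd1 and Nt5e had several probes each, and the 7 genes had 17 in all, of which 6 were called lower and 0 higher when each of the 45101 probes was tested on its own, where 3.33% were called lower and 3.74% in either direction. The 4 P2rx4 probes, brightest first, differed by -1.62, -1.75, -1.32 and -0.92, and the first 2 were called. The second of these, at -1.75 ± 0.19, read 6.14, 6.13 and 6.07 in tertiary gliomas. The 3 Entpd1 probes differed by -1.65, -1.12 and -1.59, each called. The 3 P2rx7 probes differed by -0.20, 0.01 and -0.28, none called. The 3 Nt5e probes differed by 0.69, 0.47 and -0.03, none called.

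**Figure D3:**
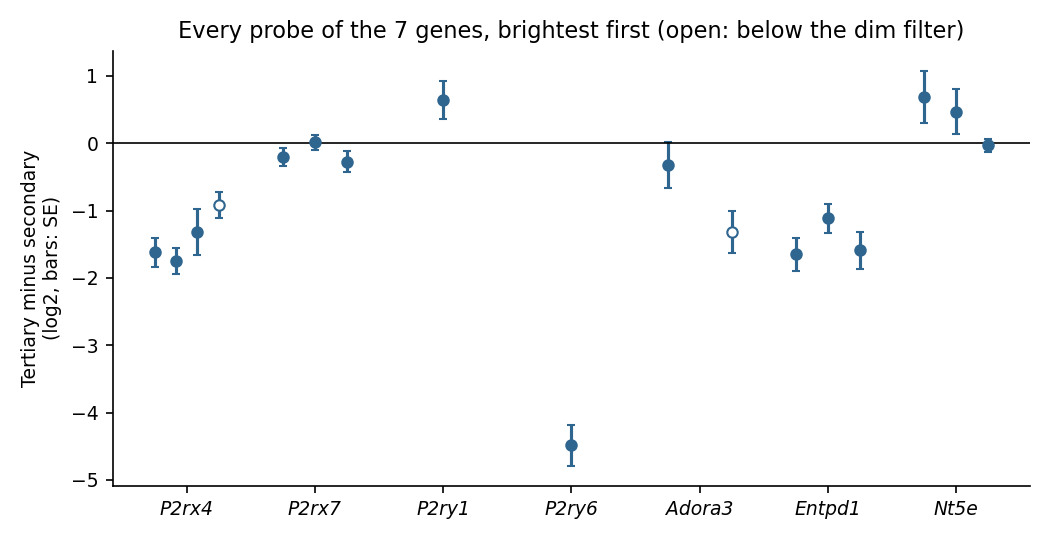
Tertiary minus secondary difference (log2, y axis, bars are the SE) of every probe of the 7 measured genes, brightest probe first within a gene; open points lie below the filter on dim probes. The P2rx4 and Entpd1 probes are all below 0, the P2rx7 probes lie around 0, and the 2 Adora3 probes are at -0.33 and -1.31.

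The samples of the secondary group were not alike. Secondary glioma 3 had the highest secondary value in 5 of the 7 genes (P2rx4, P2rx7, P2ry6, Adora3 and Entpd1) and the lowest in the other 2, P2ry1 and Nt5e. How often this sample was extreme over all genes tested was not counted, so whether this is particular to the 7 is not known. The microglia and macrophage list mean was also highest there, at 10.74 beside 9.97, 10.26 and 10.18 in secondary gliomas 1, 2 and 4, and the oligodendrocyte precursor list mean was lowest there, at 10.13 beside 10.50, 10.32 and 10.61. Without secondary glioma 3 the differences of P2ry6, P2rx4 and Entpd1 were -4.22, -1.43 and -1.51, each still called. Without both secondary glioma 3 and tertiary glioma 1, the same 3 genes were called, at -4.31, -1.43 and -1.64, and no other of the 7 was.

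The 3 called genes did not fall by the same amount. The log2 ratio of P2ry6 to P2rx4 changed by -2.87 and that of P2ry6 to Entpd1 by -2.84, both without overlap between the groups, while that of P2rx4 to Entpd1 changed by 0.03 and overlapped. The ratio to the microglia and macrophage list mean changed by -0.59 for P2ry6, by 2.28 for P2rx4 and by 2.25 for Entpd1, each without overlap. Each of these 5 changes without overlap had an exact two-sided permutation p of 0.0571, and 0.0653 adjusted over the 8 ratios. Because it doubles the smaller one-sided p, this form of the exact test cannot go below 0.0571 with these sample numbers. The exact p of the ratio of P2rx4 to Entpd1 was 1. P2rx4 and Entpd1 had levels of 7.17 ± 0.09 (SD) and 7.84 ± 0.33 in tertiary gliomas, well above the filter on dim probes. The other P2rx4 probes averaged 6.11, 5.83 and 3.31 there, the last below the filter, and the other Entpd1 probes 6.87 and 5.81. In the same samples the mean of the marker list fell by 3.90. Its single markers differed by -5.37 to -1.79 and read between 2.86 and 9.76 in tertiary gliomas. The part of those cells in the P2rx4 and Entpd1 levels was not tested.

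**Figure D4:**
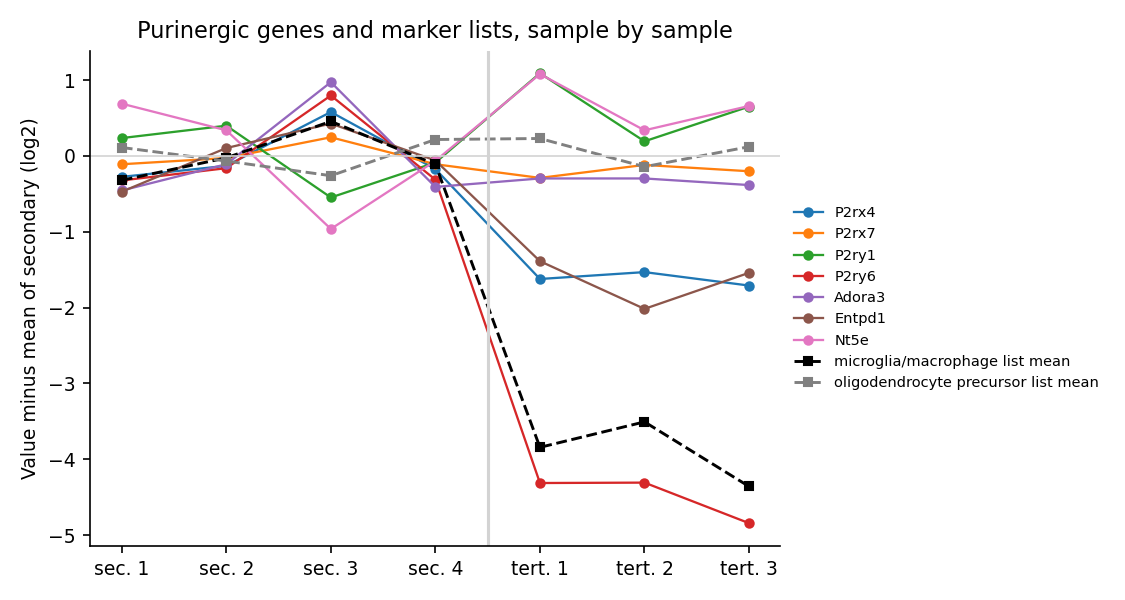
Log2 value minus the mean of the secondary gliomas (y axis) in each of the 7 samples (x axis) for the 7 measured genes and, dashed, the mean of the microglia and macrophage list and of the oligodendrocyte precursor list. In tertiary gliomas P2ry6 lies below the black line, P2rx4 and Entpd1 lie between it and 0, and in secondary glioma 3 P2ry1 and Nt5e dip while the other 5 genes rise above 0.

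Other receptors for nucleotides were read from lists of pathway genes. Of the 4 other P2Y receptors tested, 2 were lower, beside 6.33% of all genes tested, and 0 higher, with a median difference of -2.07. P2ry12, the ADP receptor that steers microglial processes, read 9.03, 9.49, 10.74 and 9.70 in secondary and 5.50, 5.17 and 5.05 in tertiary gliomas, a difference of -4.50 ± 0.37 (adjusted p = 0.00023). P2ry13, a second ADP receptor of microglia, differed by -3.69 ± 0.41 (adjusted p = 0.00113). P2ry2 and P2ry14 were not called, and P2ry4 and P2ry10 lay below the dim filter. P2ry6, P2ry12 and P2ry13 were thus all lower, beside the fall of the microglia and macrophage list. The part of those cells in these differences was not tested.

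Of the 5 other P2X channels tested, limma called 0 and 1 had an unadjusted p under 0.05, with a median difference of -0.04. P2rx3, best known from sensory neurons, read 4.99, 5.14, 5.42 and 5.60 in secondary and 6.99, 5.79 and 6.01 in tertiary gliomas. The groups did not overlap, but the difference of 0.98 ± 0.30 did not pass (adjusted p = 0.105), and it was 0.61 without tertiary glioma 1. P2rx2 differed by 0.18 ± 0.15 (adjusted p = 0.504), and by 0.08 to 0.28 with 1 sample left out, the lowest without tertiary glioma 3 and the highest without tertiary glioma 2.

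Of 7 other ectonucleotidases and related enzymes tested, limma called 0 and 2 had an unadjusted p under 0.05, with a median difference of 0.08. Enpp3, a nucleotide pyrophosphatase, read 3.26, 3.17, 3.79 and 4.09 in secondary and 4.09, 5.43 and 6.26 in tertiary gliomas, a difference of 1.68 ± 0.48 (adjusted p = 0.0859). It passed the dim filter through its tertiary values, with a secondary mean of 3.58 below the filter. Without tertiary glioma 1 the Enpp3 difference was 2.27 (adjusted p = 0.00912), and without tertiary glioma 3 it was 1.18 (adjusted p = 0.216). Leaving out tertiary glioma 1 also raised the count of all genes called higher from 151 to 781. Entpd7, an intracellular relative of Entpd1, differed by -0.54 ± 0.19 (adjusted p = 0.137), by -0.33 without tertiary glioma 1 and by -0.12 with the mean of all its probes.

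Among 12 genes of adenosine uptake and metabolism tested, 2 were lower, beside 6.33% of all genes tested, and 0 higher, with a median difference of 0.15. Slc29a3, a nucleoside transporter of lysosomes, was at 9.13 ± 0.40 (SD) in secondary and 7.34 ± 0.20 in tertiary gliomas, a difference of -1.79 ± 0.23 (SE, adjusted p = 0.00249). Pnp, the purine nucleoside phosphorylase that breaks down inosine and guanosine, differed by -1.42 ± 0.28 (adjusted p = 0.022). The call of Pnp was lost without secondary glioma 2 (adjusted p = 0.0579) and without tertiary glioma 3 (adjusted p = 0.0641), and with the variance of each gene on its own (adjusted p = 0.111). Of the genes that clear adenosine itself, Ada, Adk and the surface transporter Slc29a1 were not called. In this list 2 genes were fully apart with tertiary below and 3 with tertiary above, beside 11.2% and 10.8% of all genes tested. The 3 were Nt5c2, Slc29a1 and Slc29a4, none called. Slc29a4 differed by 0.76 ± 0.24 (adjusted p = 0.114) and Slc29a1 by 0.45 ± 0.21 (adjusted p = 0.241).

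Of 6 genes of ATP release tested, limma called 0 and 2 had an unadjusted p under 0.05. Panx1, a channel through which ATP leaves cells, was at 8.08 ± 0.15 in secondary and 8.60 ± 0.10 in tertiary gliomas, without overlap. Its difference of 0.52 ± 0.14 did not pass (adjusted p = 0.064). With 1 sample left out its adjusted p went up to 0.195, and it was 0.0485 without tertiary glioma 1, where 781 of all genes were called higher. Slc17a9, which loads ATP into vesicles, differed by -0.41 ± 0.17 (adjusted p = 0.191).

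Opening of P2rx7 is known to trigger assembly of the inflammasome protein complex and release of processed interleukin-1 in macrophages. In the list of inflammasome and interleukin-1 genes, 7 of 10 were lower, beside 6.33% of all genes tested, and 0 higher. The median difference was -1.72, and the list includes genes outside that complex, such as the antagonist Il1rn. Il1a read 7.94, 8.22, 9.35 and 8.66 in secondary and 3.96, 4.09 and 3.98 in tertiary gliomas, a difference of -4.53 ± 0.31 (adjusted p = 0.000113). The tertiary values of Il1a lay at the dim filter. Il1b differed by -4.69 ± 0.37, the adaptor Pycard by -3.05 ± 0.29, the pore-forming protein Gsdmd by -1.67 ± 0.19 and the interleukin-1 receptor antagonist Il1rn by -2.62 ± 0.38. With the mean of all its probes Pycard differed by -1.38 (adjusted p = 0.003), and Il1rn had an adjusted p of 0.0546 with the variance of each gene on its own. The sensor Nlrp3 and the protease Casp1, named after their values were seen, differed by -1.76 ± 0.33 (adjusted p = 0.0176) and -1.12 ± 0.26 (adjusted p = 0.0414). Nlrp3 lost its call without tertiary glioma 2 (adjusted p = 0.0707) and without tertiary glioma 3 (0.0613). Casp1 lost its call without secondary gliomas 1, 2 and 3 (adjusted p = 0.0569, 0.0848 and 0.106), and the same held on leaving out tertiary glioma 2 (0.144) or 3 (0.146). The channel P2rx7 itself differed by -0.20, and the microglia and macrophage list mean fell by 3.90 in these samples.

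Of 20 G protein, cyclase and phospholipase genes tested, 1 was lower, a share near the 6.33% of all genes tested, and 0 higher, with a median difference of -0.09. It was Adcy7, an adenylate cyclase of blood cells and microglia, which read 10.24, 10.27, 10.93 and 10.07 in secondary and 6.30, 7.13 and 6.60 in tertiary gliomas, a difference of -3.70 ± 0.27 (adjusted p = 0.000129).

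**Figure D5:**
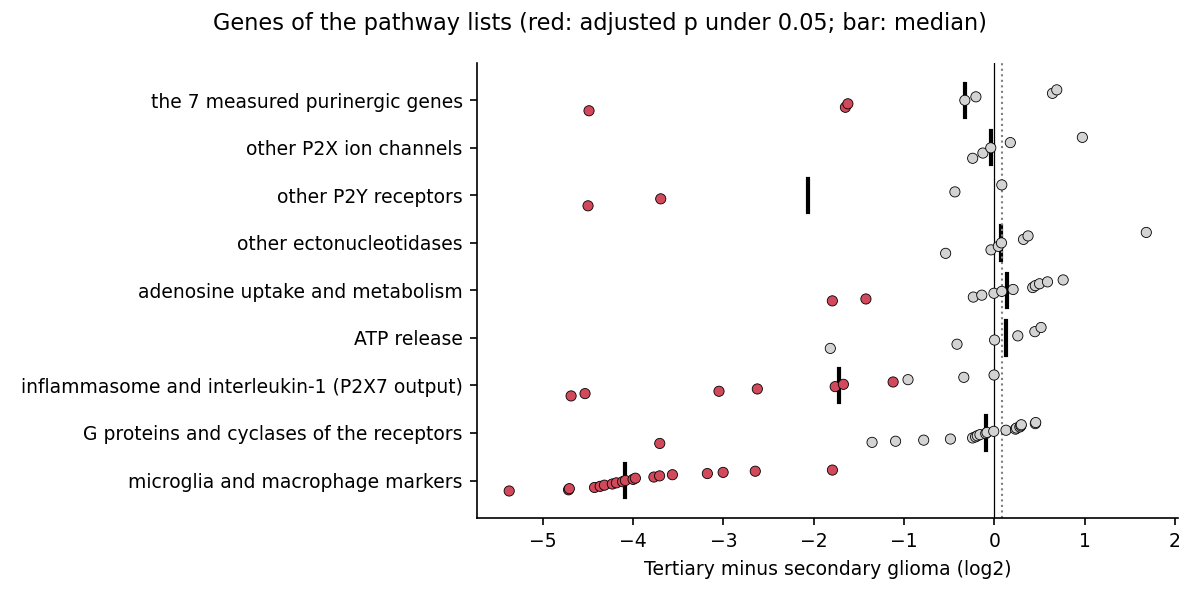
Tertiary minus secondary difference (log2, x axis) of each tested gene in the lists of purinergic pathway genes and in the microglia and macrophage list; red points had an adjusted p under 0.05, black bars are list medians and the dotted line is the median of all genes tested. The 7 measured genes spread from -4.49 to 0.69, and the inflammasome list has its median at -1.72.

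Markers of further cell types moved in the same samples. Of 7 granulocyte and monocyte markers with a probe, 3 passed the dim filter and all 3 were lower, beside 6.33% of all genes tested. The differences were -4.38 ± 0.32 (SE) for Csf3r, -3.45 for S100a9 and -3.42 for S100a8. S100a8 passed through its secondary values, with a tertiary mean of 3.77 below the filter. The other 4 lay below the filter and were not tested: Mpo was at 3.52 in secondary and 3.66 in tertiary gliomas, Elane at 2.68 and 2.74, Cxcr2 at 3.82 and 3.36, and Ccr2 at 3.00 and 2.31. S100a9, S100a8 and, below, Mag lost their calls with the variance of each gene on its own (adjusted p = 0.0709, 0.0741 and 0.0716). Of 7 mature oligodendrocyte markers 2 were lower, beside 6.33% of all genes tested, Mog at -2.42 ± 0.26 and Mag at -2.42 ± 0.38. In limma 6 of the 7 had an unadjusted p under 0.05, beside 23.8% of all genes tested. Values of 5 were fully apart with tertiary below, beside 11.2% of all genes tested. The list mean went from 8.64 ± 0.35 to 7.17 ± 0.15. In the astrocyte, neuron and lymphocyte lists limma called 0 of 7, 0 of 7 and 0 of 5, with 2, 2 and 0 at an unadjusted p under 0.05. Of these lists Aldh1l1 differed by -0.60 (adjusted p = 0.136), Tubb3 by 1.81 (0.0763) and Cd79b by -0.34 (0.47), which was -0.09 without secondary glioma 3. Aldh1l1 was -0.39 without tertiary glioma 3. The part of any of these cells in the differences of P2ry6, P2rx4 and Entpd1 was not tested.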

How the data were processed

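The authors deposited log2 values for every probe on each array, made with RMA per the submitters' processing notes. The software is not given in the sources used; log base 2 was inferred from the range of values. RMA equalises the arrays and compresses differences of dim probes. RNA was amplified with a NuGEN whole-transcriptome kit before biotin labelling, per the labels' protocols. No scanner file, detection call or scan date was used, and batches were not examined.

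Of 45101 probes, 34945 had 1 gene symbol in the platform annotation, 932 had several, 9160 had none listed and 64 were controls. Probes with 1 symbol gave 18193 genes, and symbols were checked against RefSeq GRCm38.p6 (0 were updated). A gene kept its probe with the highest mean. Genes whose probe averaged under 3.99, the 25th percentile over probes, were dropped, and 14453 were tested with limma 3.58.1 in R 4.3.3 (lmFit and eBayes, tertiary against secondary, no covariate, Benjamini-Hochberg adjustment, threshold 0.05). The fit was checked on simulated data. Ratios of genes within an array were tested with exact permutation tests (SciPy 1.17.1). In any pair of arrays at most 5.39% of probes had equal values, so none was counted as a repeat. The genes, lists and tests were chosen with earlier results of these data known. From each further list the text names, ranked by p, up to 5 called pathway genes or 3 called markers, and in lists without a call the top 2 or 1. P2ry2, P2ry4, P2ry10, P2ry14, Ada, Adk, Slc29a1, Slc29a4, Nt5c2, Cspg4, Nlrp3 and Casp1 fall outside this rule and were named after their values were seen. The same holds for Itgam and Gja1. Alternatives were the choice of probe, filter, normalization, variance model, array weights, a replicate block, the threshold and leaving out samples. The list of red blood cell markers had 1 tested gene, Alas2, which was not called.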

Additional observations from a re-analysis of the deposited data

Results flagged for a closer look

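Outlying samples were looked for in the 4 secondary gliomas over 55 genes and list means, with Dixon's ratio of the gap to the nearest sample over the whole range set against its 95% critical value. Chance flags about 1 in 20 such groups, and 3 of 55 were flagged. All 3 were secondary glioma 3. P2ry6 was at 10.15 there, with the other 3 secondary gliomas between 9.03 and 9.19 (ratio 0.856). P2rx4 was at 9.37, with the others between 8.51 and 8.66 (ratio 0.830). The B cell receptor chain Cd79b, from the lymphocyte list, was at 4.95, with the others between 3.95 and 3.98 (ratio 0.973). The mean of the microglia and macrophage list was also highest in secondary glioma 3, at 10.74, but was not flagged.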

How the results depend on the processing

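P2ry6 and P2rx4 kept their direction and their call under all 19 alternatives run, with differences from -4.60 to -4.22 and from -1.75 to -1.40 and adjusted p of at most 0.00884 and 0.0374. Entpd1 ranged from -1.81 to -1.45 and kept its call in 18 of 19. Replicate numbers of the 2 groups showed no pairing of the samples (correlations of same-numbered deviations 0.04, -0.14 and 0.01 for numbers 1 to 3). Pairs of unlike number lay between -0.24 and 0.27. The labels name no donor, so a shared origin of samples could not be settled from so few arrays. With the replicate block Entpd1 had an adjusted p of 0.0547, Il1rn of 0.0520 and Casp1 of 0.109. None of P2rx7, P2ry1, Adora3 and Nt5e was called under any alternative or changed sign. Averaging both Adora3 probes gave -0.82 (adjusted p = 0.141), and with the probe of largest variance or the filter at the 50th percentile Adora3 fell below the filter and had no value. The genes without overlap among the 7 numbered 3 to 5.

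Over all genes, 915 were called lower and 151 higher. With the replicate block these were 575 and 61, and with the variance of each gene on its own 492 and 29. The count of genes called higher was 668 with array weights, 437 at an adjusted p under 0.10 and 543 without both secondary glioma 3 and tertiary glioma 1, and between 27 and 781 with 1 sample left out, the highest without tertiary glioma 1. The cause was not tested. Median centring moved the median of all genes from 0.09 to 0.13. Of the further named genes, Enpp3 (0.0156) and Panx1 (0.0340) were called with array weights, as was Aldh1l1 (0.0489), and Nlrp3 (0.104) and Casp1 (0.145) lost their calls with the variance of each gene on its own. Dim probes limit P2ry4, P2ry10, Adora3, the secondary level of Enpp3 and the tertiary levels of Il1a and Aldh1l1.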
